A study of Mus musculus with 15 samples.

Results

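Cxcl1, Cxcl2, Cxcl3 and Cxcl5 are 4 mouse genes that encode CXC chemokines attracting neutrophils. They were taken by symbol from the count tables of RNA sequencing of primary astrocytes from mouse brain, and are 4 of the 25748 genes listed there. The 15 libraries form 3 groups of 5. The Rg1 plus LPS cultures received 80 µM ginsenoside Rg1, a saponin of ginseng, for 12 h and then 1 µg/mL lipopolysaccharide (LPS), the bacterial cell wall component sensed by TLR4, for 6 to 8 h. The LPS cultures, which the submitters label SCI, received the same LPS without Rg1, and the control cultures received neither. No injured tissue was sequenced, and no library with Rg1 alone was analysed here. The labels name no mouse strain or age, and do not say if replicates were grown as separate cultures. P-values therefore refer to the spread among the sequenced libraries, which may be technical.

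Chemokines of this family carry an ELR motif, the amino acids glutamate, leucine and arginine, just before their first cysteines. They bind the receptor CXCR2 on neutrophils and draw these cells out of the blood into inflamed tissue. Their genes are silent or low in resting cells and are switched on within hours through NF-kB after TLR4, IL-1 or TNF signals, and their mRNAs are short-lived because AU-rich elements in the 3′ UTR are targets of decay factors. In the brain and spinal cord, astrocytes are a known source of Cxcl1 and Cxcl2 after injury or infection.

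The 4 genes lie on the plus strand of chromosome 5 (GRCm38, the build the submitters' processing notes name, with positions from GENCODE M21). Cxcl5 spans chr5:90759360-90761624, Cxcl3 chr5:90786103-90789600, Cxcl1 chr5:90891241-90893115 and Cxcl2 chr5:90903871-90905938. The cluster extends over 146.6 kb in RefSeq coordinates and holds 7 protein-coding genes, the other 3 being Ppbp, Pf4 and Cxcl15. Promoter sequences of RefSeq (GRCm38.p6) were at hand for Cxcl1, Cxcl2 and Cxcl3. They are shown because these genes were all highest in LPS and share an NF-kB type motif, whose part in their levels was not tested. Each stretch is 150 bases of the plus strand, read 5′ to 3′ and ending just before the first annotated transcript start, at chr5:90891091-90891240 for Cxcl1, chr5:90903721-90903870 for Cxcl2 and chr5:90785951-90786100 for Cxcl3. Capitals mark GGGAATTTCC, a form of the NF-kB site, and ATAAAAGG, a TATA-like motif. Both were found in the sequences themselves: GGGAATTTCC is the start of an 11-letter string, and ATAAAAGG an 8-letter one, and these were the 2 strings of 8 or more letters present in all 3 windows upstream of the RefSeq start.
Cxcl1: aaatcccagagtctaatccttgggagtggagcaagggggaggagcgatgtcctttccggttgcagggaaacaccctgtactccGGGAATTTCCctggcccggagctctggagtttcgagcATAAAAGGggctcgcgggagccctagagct
Cxcl2: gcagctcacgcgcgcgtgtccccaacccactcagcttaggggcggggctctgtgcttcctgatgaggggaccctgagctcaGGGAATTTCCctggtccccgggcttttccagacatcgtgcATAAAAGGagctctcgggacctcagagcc
Cxcl3: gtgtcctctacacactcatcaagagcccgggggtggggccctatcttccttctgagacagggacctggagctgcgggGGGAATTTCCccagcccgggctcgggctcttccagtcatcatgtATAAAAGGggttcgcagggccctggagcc

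In all 3 promoters GGGAATTTCC stood upstream of ATAAAAGG, and the first bases of both motifs were 37 bases apart in Cxcl1, 40 in Cxcl2 and 44 in Cxcl3. Motifs were searched on both strands of windows from 250 bases before to 50 bases after each RefSeq start. GGGAATTTCC was present in 29 of 32851 windows of that length (0.0883%), the 3 chemokine genes among them by the choice of the motif. The looser form GGGNNTTTCC, which overlaps it, was in 1.63% of windows, and ATAAAAGG in 1.76%. A match is a description of these letters and does not show that a factor binds there.

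The 3′ UTRs carried the pentamer ATTTA, the core of AU-rich elements. Counts of ATTTA, overlapping copies included, were 7 in the 592-base 3′ UTR of Cxcl1, 11 in the 734 bases of Cxcl2, 5 in the 645 bases of Cxcl3 and 5 in the 1111 bases of Cxcl5. Among 3′ UTRs within 20% of the same length, 0.366% held at least as many as Cxcl1, 0.042% as many as Cxcl2, 2.89% as many as Cxcl3 and 12.6% as many as Cxcl5. The 30 bases with the most copies in each UTR are shown with ATTTA in capitals, from chr5:90892602-90892631, chr5:90905327-90905356, chr5:90787629-90787658 and chr5:90760634-90760663 on the plus strand of GRCm38.
Cxcl1: gagggtcctATTTATTTAtgtATTTATTTA
Cxcl2: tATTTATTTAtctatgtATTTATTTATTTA
Cxcl3: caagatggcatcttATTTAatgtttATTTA
Cxcl5: agcttcctgctcatctcacaagtgtATTTA

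The coding sequences of Cxcl2 and Cxcl3 were 89.8% identical, those of Cxcl2 and Cxcl1 75.6% and those of Cxcl3 and Cxcl1 72.6%, each over an aligned length of 303. Cxcl5 was 49.5% identical to Cxcl2 and 48.9% to Cxcl3, over aligned lengths of 400 and 399. Gaps count as differences here, so the lower values of Cxcl5 come in part from gaps. Of all stretches of 50 bases in the Cxcl3 transcript, 6.31% also occurred in Cxcl2, and of those in Cxcl2 5.75% occurred in Cxcl3. No stretch of Cxcl1 was shared with another gene, and 3.08% of those of Cxcl5 were found in other genes. The counting of reads that match 2 genes is not given in the sources used here. If the 71716 counts of Cxcl2 in the LPS libraries were reads of 50 bases spread evenly on its transcript, about 4124 would fall in the part shared with Cxcl3. Cxcl3 itself held 1215 counts in the same libraries. Longer reads would be shared less often. The level of Cxcl3 is therefore uncertain.

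Total counts per library were 36.2 to 41.1 M in Rg1 plus LPS, 34.2 to 41.8 M in LPS and 34.3 to 39.0 M in control. Across the 15362 genes that passed the filter on low counts, Rg1 plus LPS replicates 1 and 4 deviated from their group mean together (r = 0.348, a description across genes). They deviated opposite to replicates 2, 3 and 5 (r between -0.549 and -0.397). Deviations from a group's own mean tend to correlate negatively, and r was as low as -0.581 for LPS replicates 1 and 3. Rg1 plus LPS replicates 1 and 4 also had the lowest fibroblast and meningeal marker sums of their group. These were 2062 and 2889 CPM, against 4477 to 6314 CPM in the rest of the group. For microglia and macrophage, astrocyte and neuron markers, too, these 2 libraries had the lowest sums of their group. The astrocyte sums were 7332 and 7646 CPM, against 9158 to 11835 CPM. For neutrophil, endothelial and oligodendrocyte lineage markers they were not the lowest. CPM are counts as parts per M of the library size after TMM scaling, a correction for differences in RNA composition between libraries. Among microglia and macrophage markers, the sum was 50.6 to 76.2 CPM in Rg1 plus LPS, 73.7 to 158 CPM in LPS and 62.3 to 161 CPM in control. Much of it came from Tmem119, with means of 36.0, 28.4 and 30.7 CPM, and Cd68, with 10.7, 12.2 and 9.09 CPM. The sums therefore reflect the other markers less. Within LPS, replicates 2 and 3 had the highest sums, and within control, replicate 4. Astrocyte markers summed to 7332 to 11835 CPM in Rg1 plus LPS, 7030 to 11787 CPM in LPS and 10457 to 13172 CPM in control. All 10 of them were above 1 CPM on average in each group, so RNA of the labelled cell type was present. This does not show how pure the cultures were, as fibroblast and meningeal markers summed to 4568 to 6391 CPM in LPS. In bulk RNA, fewer cells of a type and less RNA per cell cannot be told apart.

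Cxcl1, known in mice as KC, was the most abundant of the 4 per gene length in every library. Its level in the 5 Rg1 plus LPS libraries was 10.0, 6.33, 4.57, 5.05 and 5.72 CPM, against 2206, 2396, 2657, 1839 and 2108 CPM in the LPS libraries and 11.2, 11.9, 11.1, 6.93 and 11.3 CPM in the control libraries. All LPS libraries lay far above all others, while the Rg1 plus LPS and control libraries overlapped, since Rg1 plus LPS replicate 1 lay above control replicate 4. Group means were 6.34 ± 2.17 CPM in Rg1 plus LPS, 2241 ± 307 CPM in LPS and 10.5 ± 2.01 CPM in control (SD, n = 5 each). On the scale of FPKM, which corrects for gene length, Cxcl1 averaged 2262 FPKM in LPS and ranked number 11 of 25711 genes, and it took 0.215% of all counts there.

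Cxcl2, known as MIP-2, had 2.46, 0.198, 0.247, 1.17 and 0.0238 CPM in the Rg1 plus LPS libraries, against 427, 403, 380, 425 and 339 CPM in the LPS libraries and 0.542, 0.542, 0.961, 0.702 and 0.616 CPM in the control libraries. The LPS libraries stood apart from all others. The Rg1 plus LPS libraries spread on both sides of the control libraries: replicates 1 and 4, the pair that deviated together, lay above all control libraries, and replicates 2, 3 and 5 below all of them. The 5 Rg1 plus LPS libraries held 102, 8, 10, 44 and 1 counts of Cxcl2, in replicate order. The coefficient of variation was 124% in Rg1 plus LPS, 9.32% in LPS and 25.9% in control.

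Cxcl5, known as LIX, which draws neutrophils through the same receptor, had 1.62, 3.92, 2.64, 1.28 and 1.19 CPM in the Rg1 plus LPS libraries, against 107, 133, 155, 84.1 and 85.9 CPM in the LPS libraries and 1.63, 2.11, 1.68, 0.936 and 1.29 CPM in the control libraries. LPS replicates 2 and 3, those with the highest sums of microglia and macrophage markers in their group, were also the highest for Cxcl5 and for Cxcl1. They had the highest astrocyte marker sums of the group as well, 9209 and 11787 CPM against 7030 to 7198 CPM, whereas Cxcl2 was highest in replicates 1 and 4 and Cxcl3 in replicates 1 and 5. The part of the cell make-up in these levels was not tested. The means were 2.13 ± 1.16 CPM in Rg1 plus LPS, 113 ± 30.9 CPM in LPS and 1.53 ± 0.442 CPM in control (SD, n = 5 each).

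Cxcl3, a close relative of Cxcl2, was detected in LPS libraries only: no count was found in the 5 Rg1 plus LPS and the 5 control libraries, whereas the LPS libraries held 288, 219, 214, 201 and 293 counts. These correspond to 7.74, 5.94, 6.57, 5.67 and 7.34 CPM. In a single library, a count of 0 allows a level of up to 0.0718 to 0.0877 CPM, the worth of 3 counts.

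**Figure D1:**
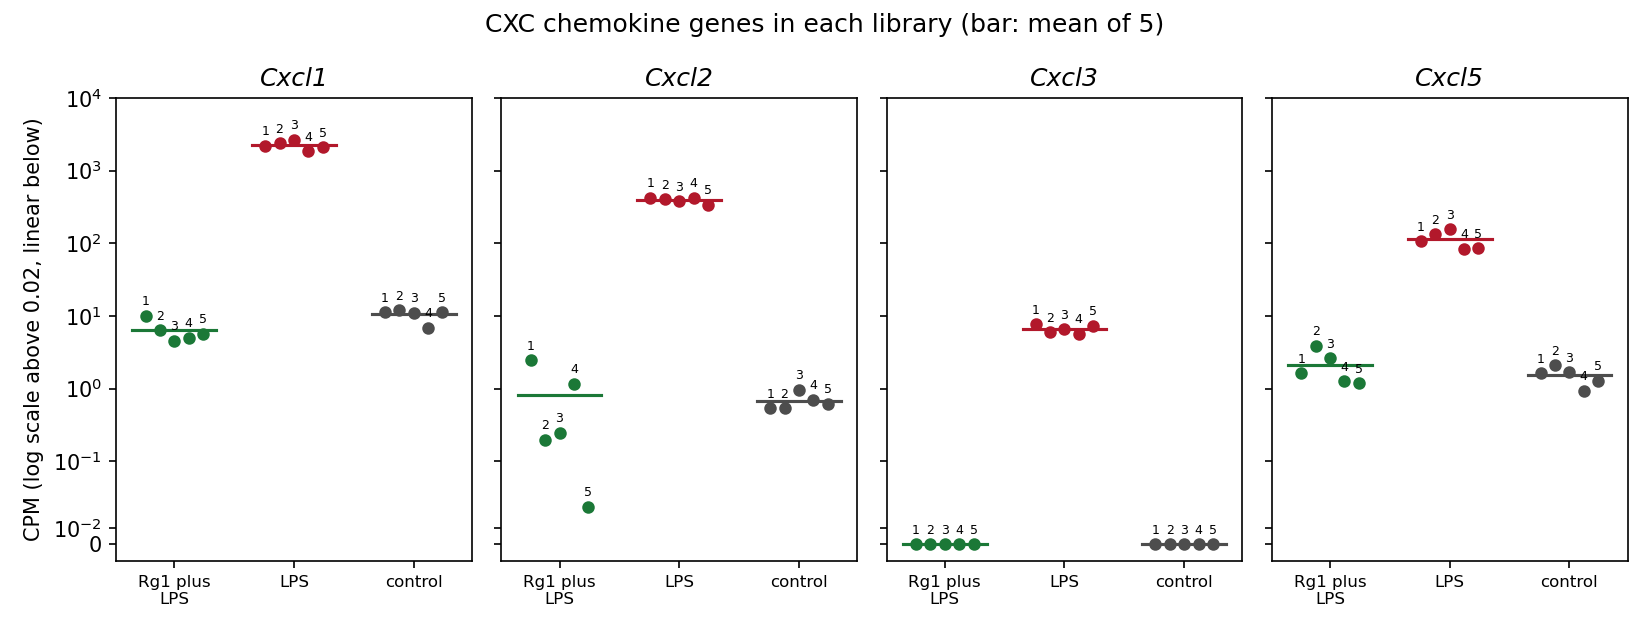
CPM of Cxcl1, Cxcl2, Cxcl3 and Cxcl5 in each library, on an axis that is logarithmic above 0.02 CPM and linear below; points are libraries with their replicate numbers, and bars are means of 5. The LPS libraries lie above all others for each gene, and for Cxcl2 the Rg1 plus LPS libraries spread from 0.0238 to 2.46 CPM around the control libraries.

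LPS against control asks what the endotoxin alone did to these genes. Cxcl1, Cxcl2 and Cxcl5 rose, by an edgeR quasi-likelihood test with Benjamini-Hochberg adjustment over the 15362 genes tested (called at adjusted p under 0.05), where 13.8% of genes were called higher and 9.82% lower. With total counts as the only scaling, the higher share of all called genes was 45.9% in place of 58.5%, and the calls of these 3 chemokines stayed as they were. The log2 fold change was 9.19 ± 0.52 for Cxcl2 (SE, adjusted p = 3.49e-09), 7.74 ± 0.24 for Cxcl1 (adjusted p = 1.2e-12) and 6.20 ± 0.33 for Cxcl5 (adjusted p = 1.27e-09). Cxcl3 was at least 407-fold higher in LPS, taking 3 counts over the control group as the floor. It passed the filter on low counts only through the LPS libraries, where it is high, so no test of it is given. Counts and shares over all genes tested still include it and other genes that passed in this way. In none of the other 3 genes did the LPS and control libraries overlap, as was the case for 12.8% of the genes tested in the upward direction. A called rise of 64-fold or more was seen in 27 genes, 0.176% of those tested, and Cxcl1, Cxcl2 and Cxcl5 were among them. The cutoff lies just under the rise of Cxcl5, the smallest of the 3. Their place in this count is therefore no separate evidence.

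Rg1 plus LPS against LPS asks what the ginsenoside changed in cultures that were also given the endotoxin. Cxcl1, Cxcl2 and Cxcl5 fell, where 23.2% of the genes tested were called lower and 22.2% higher. With total counts as the only scaling the median of all genes moved to 0.139 on the log2 scale, in place of 0.03, and 65.0% in place of 48.9% of called genes were higher, but each of the 3 was still called lower. The log2 fold change was -8.91 ± 0.51 for Cxcl2 (SE, adjusted p = 2.4e-09 in the same edgeR fit), -8.46 ± 0.25 for Cxcl1 (adjusted p = 3.37e-13) and -5.73 ± 0.32 for Cxcl5 (adjusted p = 1.33e-09). Cxcl3 was at least 449-fold lower in Rg1 plus LPS, again with no test, though counts over all genes tested include it. No Rg1 plus LPS library reached the lowest LPS library for Cxcl1, Cxcl2 or Cxcl5, as was the case for 15.1% of the genes tested in the downward direction. A called fall of 32-fold or more was seen in 61 genes, 0.397%, and Cxcl1, Cxcl2 and Cxcl5 were again among them. Here too the cutoff lies just under the change of Cxcl5, so their place in the count is no separate evidence. This comparison and the one of LPS with control share the 5 LPS libraries.

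Rg1 plus LPS against control asks how close the pretreated cultures were to cultures that never met LPS. Cxcl1 fell by 0.72 on the log2 scale (SE 0.19, edgeR adjusted p = 0.00833), in a comparison where 36.9% of the genes tested were called in either direction, 18.1% lower and 18.8% higher. With total counts as the only scaling, the higher share of all called genes there was 63.8% in place of 50.9%. Of 17 microglia and macrophage markers, 8 were also lower there and none higher, with a median log2 fold change of -1.55, and their part in the value of Cxcl1 was not tested. Cxcl5 differed by 0.47 ± 0.34 (adjusted p = 0.295) and Cxcl2 by 0.28 ± 0.63 (adjusted p = 0.758), and neither passed the test. For Cxcl3 both groups were at 0 and no fold can be given. Without Rg1 plus LPS replicates 1 and 4, a choice made after seeing the data, Cxcl2 fell by 2.09 on the log2 scale against control (SE 0.38, adjusted p = 0.000787). Its direction against control was not stable: the log2 fold change was -0.761 ± 0.53 without replicate 1 alone (adjusted p = 0.278) and 0.136 ± 0.69 without replicate 4 alone (adjusted p = 0.901). With all 15 libraries, limma voom gave -0.935 ± 0.76 (adjusted p = 0.355).

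The 4 transcripts did not keep their proportions. Of the FPKM summed over the 4 genes, 9.06 in Rg1 plus LPS, 2686 in LPS and 12.5 in control on average, Cxcl1 took 76.8%, 84.1% and 87.5% of each library's sum in the same order of groups. The share of Cxcl2 was 7.48 ± 7.71% in Rg1 plus LPS, 13.2 ± 2.19% in LPS and 5.17 ± 1.84% in control. The share of Cxcl5 was 15.7 ± 8.61% in Rg1 plus LPS, 2.42 ± 0.379% in LPS and 7.30 ± 1.13% in control (SD, n = 5 each). Cxcl3 made up 0.237% in LPS.

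**Figure D2:**
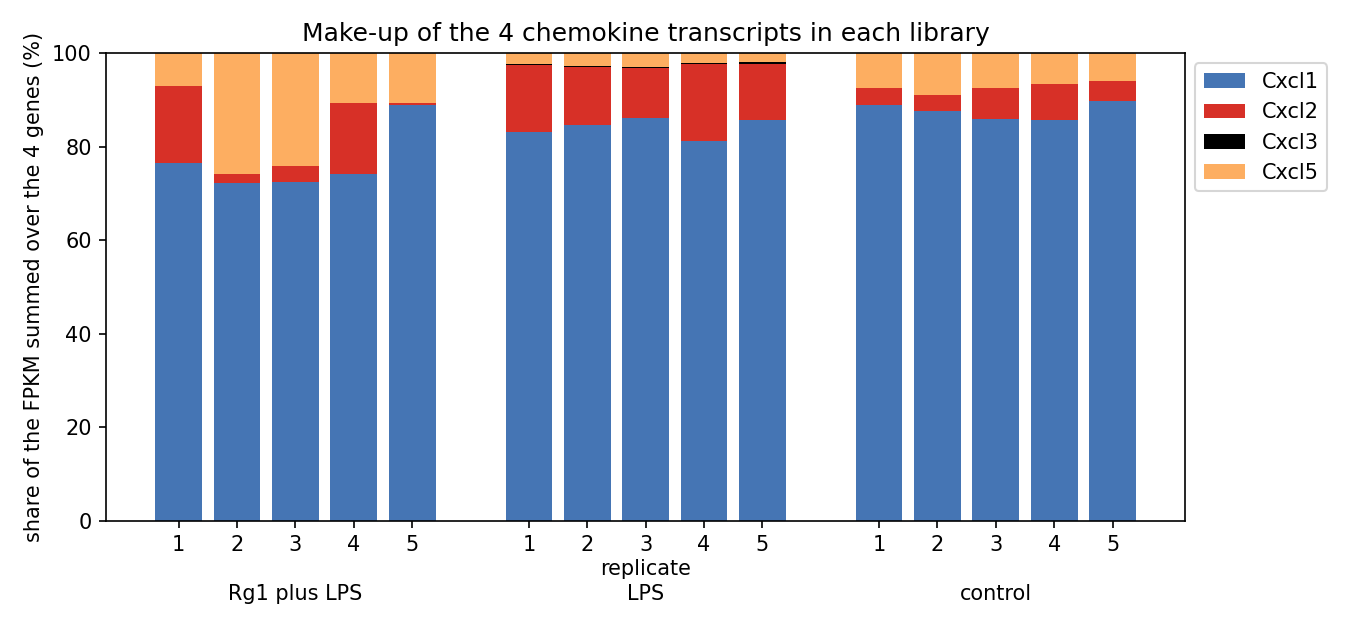
Share of each gene in the FPKM summed over Cxcl1, Cxcl2, Cxcl3 and Cxcl5, in percent, for each of the 5 libraries of Rg1 plus LPS, LPS and control. Cxcl1 fills most of each bar, Cxcl2 is widest in LPS libraries and in Rg1 plus LPS replicates 1 and 4, and Cxcl5 is narrowest in LPS.

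To test unequal change, counts per gene length were set against Cxcl1 of the same library, a ratio that needs no scaling between libraries, and compared by two-sided exact permutation tests adjusted over 9 comparisons. With 5 against 5 libraries the smallest possible p is 0.00794. Cxcl2 per Cxcl1 was 12.6% to 20.4% in LPS and 4.01% to 8.93% in control, a difference of 1.44 in mean log2 ratio (exact p = 0.00794, adjusted p = 0.0179, with all LPS libraries higher). Cxcl5 per Cxcl1 moved the other way, at 2.35% to 3.37% in LPS and 6.58% to 10.2% in control, a difference of -1.55 (exact p = 0.00794, adjusted p = 0.0179, with all LPS libraries lower). Relative to Cxcl1, LPS thus raised Cxcl2 more and Cxcl5 less.

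In Rg1 plus LPS, Cxcl5 stood at 9.29% to 35.7% of Cxcl1, above all LPS libraries by 2.67 in mean log2 ratio (exact permutation p = 0.00794, adjusted p = 0.0179). Without replicates 1 and 4 the difference was 3.10 with an adjusted p of 0.0536, the 3 remaining libraries allowing fewer splits. Against control the difference was 1.13 (exact permutation p = 0.0159, adjusted p = 0.0286). That call did not hold when single libraries were left out, with an adjusted p of 0.0571 in 8 of 10 cases. Cxcl2 stood at 21.6%, 2.77%, 4.77%, 20.4% and 0.367% of Cxcl1 in the 5 Rg1 plus LPS libraries, and its ratio differed from LPS by -1.60 (exact permutation p = 0.167, adjusted p = 0.188) and from control by -0.157 (p = 0.905). Cxcl3 was 0.281% of Cxcl1 per length over the LPS group, and counts of 0 allow at most 0.219% in Rg1 plus LPS and 0.146% in control. Its tests depended on the count added to avoid zeros and are not used.

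Inside the cluster, the other 3 genes were nearly silent. Ppbp and Cxcl15, which also carry the ELR motif, held at most 2 counts in any group. Pf4, a platelet chemokine, held 1 count in Rg1 plus LPS, 15 in LPS and 3 in control, a ratio of 5.03 for LPS over control with a counting interval of 1.42 to 27.1 (95%). Beyond the cluster, of 5 neighbours on the side of Cxcl5 only Rassf6 was tested, and it was not called in any comparison. On the side of Cxcl2, 4 of 5 were tested. Of these, Areg, which encodes the EGF receptor ligand amphiregulin, fell to 1.31 ± 0.851 CPM in LPS, against 11.9 ± 6.56 CPM in control (log2 fold change -3.19 ± 0.68, edgeR adjusted p = 0.00291). Ereg, the gene of epiregulin, another ligand of that receptor, had 11.2 ± 4.76 CPM in Rg1 plus LPS and 64.6 ± 26.1 CPM in LPS (-2.53 ± 0.40, adjusted p = 0.000107). None of the tested neighbours was called higher in LPS than in control.

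**Figure D3:**
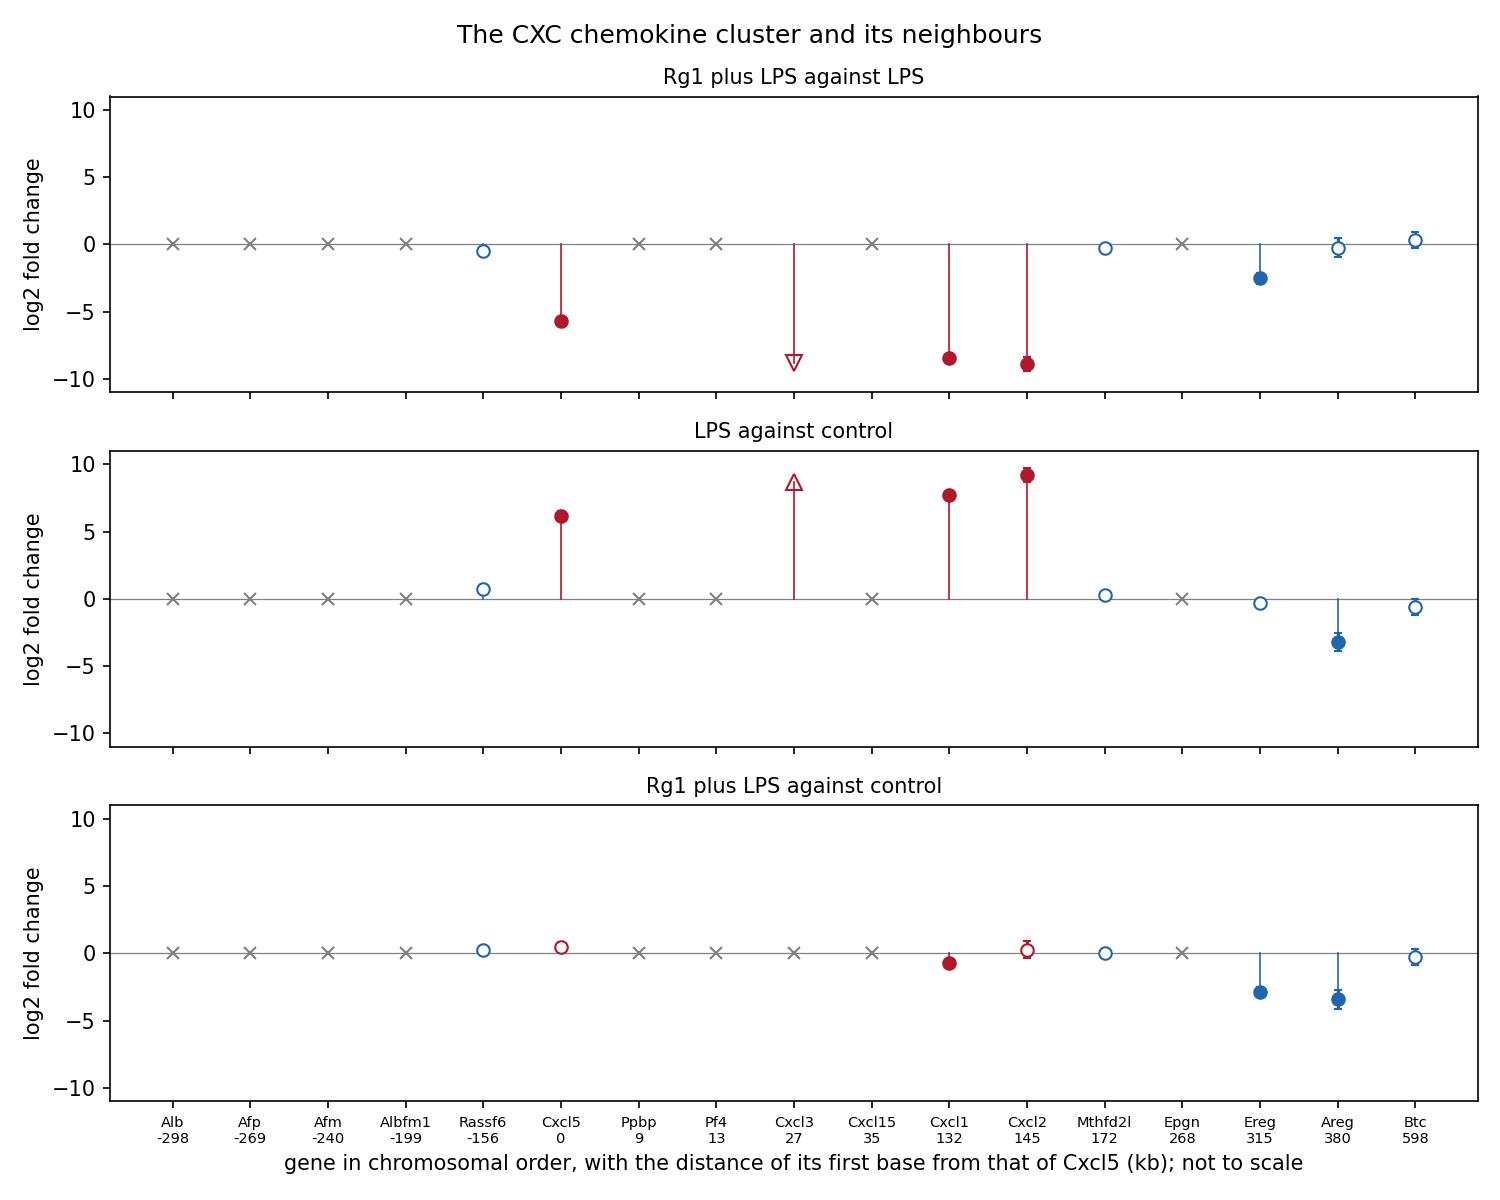
Log2 fold change with SE of the genes of the cluster (4 chemokines in red) and 5 protein-coding neighbours on each side, in chromosomal order, for the 3 comparisons; filled points have adjusted p under 0.05, triangles are bounds for Cxcl3, and crosses are genes with too few counts for a fold. In the comparisons with LPS the 4 chemokines reach beyond 5 in size while the neighbours stay within 4.

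Among other CXC ligands, those without the ELR motif, 6 of 9 listed genes were tested. Cxcl10 and Cxcl9, which attract T cells, and Cxcl16 rose in LPS against control, Cxcl14 fell, and Cxcl12 and Cxcl17 were not called. Cxcl9 held 6, 141 and 5 counts in Rg1 plus LPS, LPS and control. It passed the filter on low counts only through the LPS libraries, so its call follows in part from the filter. Cxcl10 changed by 5.85 ± 0.31 (log2 fold change, edgeR adjusted p = 1.27e-09). In Rg1 plus LPS against LPS it changed by -7.04 ± 0.33, and Cxcl10 was also lower than in control (-1.19 ± 0.28, adjusted p = 0.00409). The receptor genes Cxcr1 and Cxcr2 held at most 3 counts in any group, and Ackr1, an atypical receptor that binds these chemokines without signalling, 28, 14 and 12 counts in Rg1 plus LPS, LPS and control.

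Of 10 regulators of transcription and mRNA decay of these chemokines, 9 rose in LPS against control, where 13.8% of all genes tested rose. The median log2 fold change of the 10 was 1.40, against -0.00293 over all genes tested. In Rg1 plus LPS against LPS, 9 of the 10 fell, where 23.2% of all genes tested fell, with a median of -1.72 against 0.0284. Traf3ip2, the adaptor of the IL-17 receptor, was not called in either. Both arms were among those that rose: Nfkbiz, an NF-kB cofactor, by 3.55 ± 0.11 (edgeR adjusted p = 7.83e-13), and Zc3h12a, an RNase that degrades cytokine mRNAs, by 4.52 ± 0.12 (adjusted p = 1.26e-13). Zfp36, which binds AU-rich elements and promotes decay, rose by 2.08 ± 0.14. In Rg1 plus LPS against control, 4 of the 10 were lower, Nfkb1, Nfkbiz, Cebpb and Zc3h12a, and Zfp36 was higher by 0.43 ± 0.14 (edgeR adjusted p = 0.0224). Of all genes tested, 18.1% were lower and 18.8% higher there.

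Of 9 other neutrophil signals and adhesion molecules, 7 rose in LPS against control and the same number fell in Rg1 plus LPS against LPS. Their median log2 fold changes were 4.17 and -4.99. Of all genes tested, 13.8% rose in the first comparison and 23.2% fell in the second. Csf3, the neutrophil growth factor G-CSF, rose by 4.06 ± 0.12 and was lower in Rg1 plus LPS than in control (-0.93 ± 0.13, adjusted p = 5.95e-05 by edgeR). Csf2, which encodes GM-CSF, held 3, 3798 and 3 counts in Rg1 plus LPS, LPS and control. Il6 held 21, 4639 and 56 counts in the same order of groups. Csf2 and Il6 passed the filter on low counts only through the LPS libraries, and their calls are counted above with that limit. Il17ra and Il17rc, the receptor subunits through which IL-17 stabilises these chemokine mRNAs, were not called in either comparison. Among 9 inducers of the pathway, 5 rose in LPS against control, Tnf, Il1a, Il1b, Cd14 and Myd88, and 3 fell, the receptor genes Il1r1, Tnfrsf1a and Tlr4. Of all genes tested, 13.8% rose and 9.82% fell there. In Rg1 plus LPS, LPS and control, Tnf held 37, 8963 and 13 counts, Il1a 2, 1577 and 6, and Il1b 1, 1669 and 3. Tnf, Il1a and Il1b thus passed the filter on low counts only through the LPS libraries. Their calls in both comparisons follow in part from the filter and are only counted. In Rg1 plus LPS against LPS 6 of the 9 fell and none rose, where 23.2% of all genes tested fell and 22.2% rose. Tlr4 was not called (-0.18 ± 0.14, edgeR adjusted p = 0.31).

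**Figure D4:**
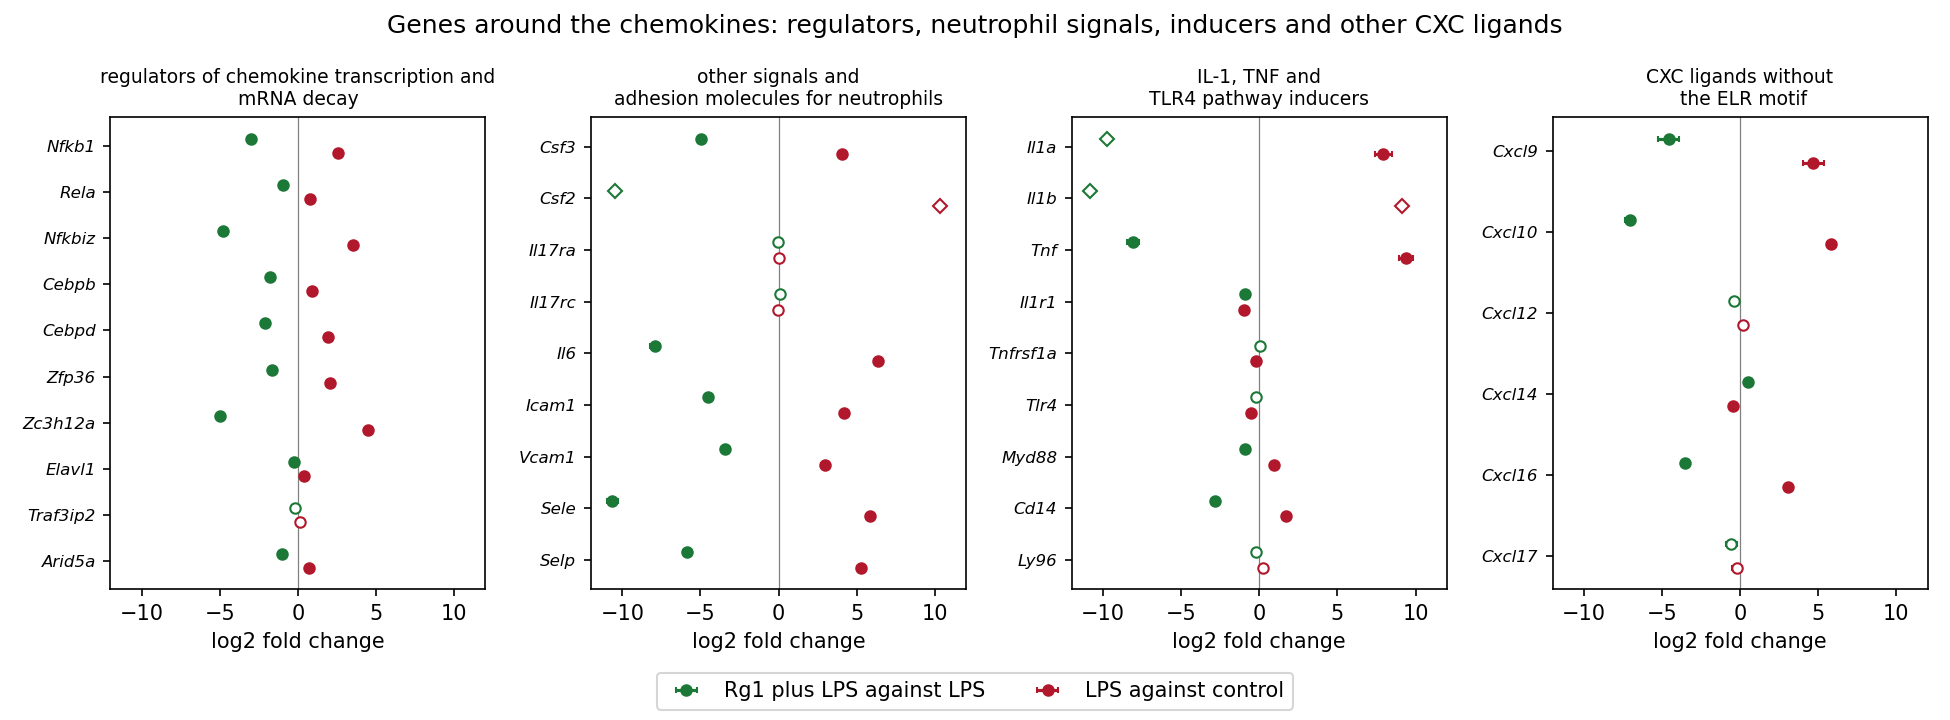
Log2 fold change with SE of genes listed around the chemokines, in 4 panels, for Rg1 plus LPS against LPS (green) and LPS against control (red); filled circles have adjusted p under 0.05, and diamonds are ratios of counts where a group held 1 to 3 counts. Most called genes rose in LPS against control and fell in Rg1 plus LPS against LPS; both comparisons use the same LPS libraries.

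Other genes with GGGAATTTCC in their promoter windows numbered 26, of which 13 were tested. In LPS against control 4 of them rose (30.8%, against 14.2% of all tested genes with a window): Gbp5 by 6.83 ± 0.33, Nfkbia, the gene of the NF-kB inhibitor IkB alpha, by 4.86 ± 0.15, Map3k7 by 0.26 ± 0.06 and Tufm by 0.18 ± 0.05. The other 9 of the 13 were not called. In Rg1 plus LPS against LPS, 5 of the 13 fell (38.5%, against 23.4% of all tested genes with a window) and 3 rose (23.1%, against 22.5%).

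The genes most like each chemokine were those with the smallest root mean square difference between log2 CPM profiles over the 15 libraries, each profile centred on its mean, and were looked for among all genes tested other than the 4 chemokines. For Cxcl1 they were Csf2 (0.533), Ccl20 (0.706), Il1b (0.793), Gbp5 (0.819) and Il6 (0.819). For Cxcl2 they were Acod1 (1.14), Nos2 (1.15), Ccl20 (1.22), Tnf (1.25) and Csf2 (1.38), all farther away than the nearest of Cxcl1. Cxcl3 was closest to Il1b (0.559), Il1a (0.579), Neurl3 (0.620), Cilp2 (0.664) and Tlr2 (0.666). Cxcl5 was closest to Cilp2 (0.383), Selp (0.579), Il23a (0.667), Saa3 (0.690) and Tlr2 (0.697). Log2 CPM used a prior count of 2, which largely sets the level where a gene holds almost no counts. In Rg1 plus LPS and control, Csf2 held 3 and 3 counts, Il1b 1 and 3, and Cxcl3 0 and 0. Distances that involve such genes depend on the prior and do not show equal fold changes.

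Markers of other cells that could make these chemokines were read in the same libraries. In LPS against control none of 17 microglia and macrophage markers was called, with a median log2 fold change of 0.30. In Rg1 plus LPS against LPS 11 of the 17 fell, in a comparison where 23.2% of all genes tested fell, with a median of -1.85, among them Itgam (-2.73 ± 0.43) and Adgre1 (-3.11 ± 0.48), and no defining marker was at 0 in a group. Leaving out LPS replicates 2 and 3, with the highest microglia sums, left the LPS effect at 7.61 ± 0.24 for Cxcl1, 9.20 ± 0.55 for Cxcl2 and 5.90 ± 0.32 for Cxcl5. The LPS libraries that remained still had microglia and macrophage sums of 73.7 to 83.3 CPM. The part of microglia in the chemokine levels was not tested. All 10 neutrophil markers were under 1 CPM in every group, with sums of 0.0477 to 0.346 CPM in Rg1 plus LPS, 0.175 to 0.591 CPM in LPS and 0.0534 to 0.392 CPM in control.

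Endothelial markers summed to 123 to 155 CPM in Rg1 plus LPS, 195 to 248 CPM in LPS and 152 to 202 CPM in control, with Pecam1, Cldn5, Tie1 and Emcn under 1 CPM in each group. Fibroblast and meningeal markers summed to 2062 to 6314 CPM in Rg1 plus LPS, 4568 to 6391 CPM in LPS and 4315 to 5731 CPM in control. The part of these cells in the chemokine levels was not tested. Of the 10 astrocyte markers, 5 were called lower in LPS against control and 4 in Rg1 plus LPS against control, with none higher. Of all genes tested, 9.82% and 18.1% were lower in these comparisons. In Rg1 plus LPS against LPS, 4 astrocyte markers were higher and 1 lower, where 22.2% and 23.2% of all genes tested were.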

How the data were processed

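Polyadenylated RNA of primary mouse astrocytes was sequenced in 15 libraries, made with the VAHTS Universal V6 kit per the labels' protocols. The authors deposited counts per gene symbol for 25748 genes, and FPKM, counts scaled to gene length and library total. The submitters' processing notes name GRCm38 and mm10; aligner, counting program and strandedness: not given in the sources used here. Of each FPKM file, 37 rows with shifted or unreadable symbols were left unused. Groups follow the sample titles; the treatment field numbers the Rg1 libraries from Rg1 to Rg5.

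Counts were fitted with edgeR 4.0.16 in R 4.3.3 (filterByExpr by group, TMM, robust quasi-likelihood, all 15 libraries, group as the only term), with p-values adjusted over the 15362 genes kept. CPM are given as mean ± SD and log2 fold changes ± SE. Ratios to Cxcl1 used counts plus 0.5 per gene length, with the lengths behind FPKM, and exact permutation tests over 252 splits. A group at 0 was set to 3 counts for bounds, and intervals are 95% exact counting intervals; both cover counting error only, as reads copied by PCR are not separate molecules. Replicate libraries all differed beyond sampling noise (chi-square per degree of freedom of at least 7.45 in 30 pairs). Alternatives were DESeq2 1.42.0, limma 3.58.1 voom, other scaling and filters, the replicate block, a larger pseudocount and left-out libraries.

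The 4 genes and all lists were chosen with earlier results of these data known. Named are the 4 genes, listed genes that passed or define their list, 5 neighbours a side, and 5 most similar profiles per gene (log2 CPM with a prior count of 2). Cxcl11 was not analysed here.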

Additional observations from a re-analysis of the deposited data

Results flagged for a closer look

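One level stood far from the others of its group. In control, replicate 4 had 6.93 CPM of Cxcl1, while the other 4 control libraries lay between 11.1 and 11.9 CPM, and the gap took 0.832 of the range of the group. The same library had the highest sum of microglia and macrophage markers among the control libraries, 161 CPM against 62.3 to 72.5 CPM, and the highest sum of astrocyte markers, 13172 CPM against 10457 to 11769 CPM. Of 17 groups of values examined, 1 stood out in this way, where chance gives about 5%.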

How the results depend on the processing

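Of 362 values under alternatives, 343 were labelled unchanged. Fold changes and ratios so labelled kept their direction and their side of the threshold. Numbers of genes changed were so labelled when they stayed within a set margin of the main number. Tests of Cxcl3, not given above, are among the 362 values. Direction reversed in 9. Of these, 3 passed the test with the main or the alternative setting: Cxcl2 in Rg1 plus LPS against control without Rg1 plus LPS replicates 1 and 4 (-2.09, adjusted p = 0.000787, chosen after seeing the data), and the ratio of Cxcl3 to Cxcl1 with 2 counts added in place of 0.5, at -0.819 in LPS against control and 1.43 in Rg1 plus LPS against LPS, against 1.17 and -0.55 as first computed. For Cxcl3 the cause lies in the construction, since groups at 0 take their value from the added count. The other 6 were never called. They were Cxcl2 in Rg1 plus LPS against control by limma voom (-0.935) and without Rg1 plus LPS replicate 1 (-0.761), and the ratio of Cxcl2 to Cxcl1 in the same comparison, -0.157 as first computed, which was 0.0517 with 2 counts added and ranged from -0.676 to 0.649 over left-out libraries, 3 of them above 0. The 10 that lost their call were ratios of Cxcl5 to Cxcl1, of which 8 came from leaving out 1 library in Rg1 plus LPS against control (0.882 to 1.37 over all 10 libraries). The other 2 left out Rg1 plus LPS replicates 1 and 4 together, with 3.10 against LPS and 1.55 against control (adjusted p = 0.0536 each); fewer libraries allow fewer splits. Leaving out 1 library moved Cxcl2 in Rg1 plus LPS against control between -0.761 and 0.621, with no call. Cxcl1 against control stayed called, between -0.953 and -0.619. Genes changed ranged from 2847 to 4521 in LPS against control, 5997 to 7529 in Rg1 plus LPS against LPS and 4903 to 6116 in Rg1 plus LPS against control.

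Replicate numbers in the titles were tried as a replicate block. Same-numbered libraries did not all deviate together (r between -0.222 and 0.155 for LPS with control, 0.0499 and 0.424 for Rg1 plus LPS with LPS, -0.218 and 0.136 for Rg1 plus LPS with control), and 0, 6 and 2 of 10 libraries correlated best with their own number in these 3 pairs of groups. All r of same-numbered Rg1 plus LPS and LPS libraries were positive, and whether these libraries share more than a number is not known. The main fit and the permutation tests treated all libraries as unpaired. With the block 4113, 7254 and 6027 genes changed in LPS against control, Rg1 plus LPS against LPS and Rg1 plus LPS against control. All 14 values, with these gene numbers and the values of Cxcl3 among them, were labelled unchanged. Cxcl5 in Rg1 plus LPS against control had an SE of 0.171, in place of 0.338. Its edgeR adjusted p there was 0.0632, in place of 0.295. Against LPS the SE of Cxcl5 was 0.152, in place of 0.316. At this depth 3 counts are worth 0.0718 to 0.0877 CPM, which limits Cxcl3 and Cxcl2 outside LPS.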
